A study of Caenorhabditis elegans with 6 samples.

Results

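The genes described here encode the cytosolic V1 sector of the vacuolar H+-ATPase (V-ATPase) of the nematode Caenorhabditis elegans, the 8 genes vha-8 to vha-15 among 47063 genes in the deposited tables. They were picked by symbol, because vha genes had run higher in the dopamine columns, so their difference between the cell types is described here and not tested. RNA-seq had been made from 3 libraries of dopamine neurons and 3 libraries of serotonin neurons, all from wild-type worms of strain FQ939, with embryos and larvae given as the tissue. The genotype is given as wild type for both groups, while any transgene or marker of the strain, and the way the cells were collected, are not stated in the labels. The labels do not tie the libraries to separate cultures, so the spread between them, on which every p-value below rests, may be technical. In bulk RNA of this kind, fewer cells of a type and less RNA per cell cannot be told apart.

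The V-ATPase is a rotary proton pump. Its V1 sector hydrolyses ATP in a head of A and B subunits, turns a central rotor of D and F subunits, and is held by peripheral stalks of E and G subunits that the C and H subunits tie to the membrane sector, V0. V0 carries the protons across the membrane through a ring of proteolipids beside a large a subunit. These roles are known best from yeast and mammals. In neurons the pump acidifies synaptic vesicles, and the proton gradient drives uptake of monoamines by the vesicular transporter that cat-1 encodes in the worm. In C. elegans it is also known for its work in the excretory canal, the intestine and the epidermis.

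The libraries held 20418663 to 31559049 recovered reads, meaning whole reads computed back from the deposited values. Nuclear ribosomal RNA took 40.9% of the reads of dopamine 1 and 41.5% of those of serotonin 3, and between 7.53% and 13.7% elsewhere. The cell type labels held: dat-1 and cat-2, the transporter and synthesis genes that mark dopamine neurons, summed to between 13522 and 27971 normalized counts in dopamine libraries and to between 95.9 and 157 in serotonin libraries. The serotonin markers tph-1 and mod-5 summed to between 49 and 224 in dopamine libraries and to between 5520.2 and 7949 in serotonin libraries. The 5 pharyngeal muscle markers summed to between 322 and 639 normalized counts in dopamine libraries and to between 30779 and 56125 in serotonin libraries, and none was at 0 in either group. The 6 body wall muscle markers summed to between 32422 and 52690 in dopamine libraries and to between 39927 and 71001 in serotonin libraries, and none was at 0 in all libraries of a group. The body wall muscle sums exceeded that of the V1 genes in each library, and the pharyngeal muscle sums did so only in serotonin libraries. Counts grow with gene length, so these sums do not compare numbers of transcripts. Among the body wall muscle markers the myosin heavy chain gene unc-54 was higher in dopamine libraries, at 25419, 25489 and 46551, than in serotonin libraries, at 15874, 10013 and 16484 (log2 fold change 1.17, SE 0.29, limma adjusted p = 0.0244, with 0.000147 to 0.282 in the alternatives), close to the V1 median. The markers lev-11, unc-15 and unc-22 fell in dopamine libraries (log2 fold changes of -3.5, -1.24 and -1.83, limma adjusted p of 9.91e-05, 0.0229 and 0.00078), and myo-3 and hlh-1 overlapped. The part of both marker lists in the values below was not tested. Of 15750 genes tested by limma without pairing by replicate number, 498 (3.16%) were higher and 1002 (6.36%) lower in dopamine neurons. These counts became 184 and 2796 under pan-neuronal scaling (libraries brought to 1 level of 16 genes that all neurons use). They were 281 and 1121 under ribosomal protein scaling, and 1068 and 1842 with the replicate number as a block. Without dopamine 3 the count higher in dopamine neurons was 224, and without serotonin 2 it was 316. The count lower in dopamine neurons was 637 without serotonin 2 and 581 without serotonin 3.

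All 8 V1 genes passed the filter on low values, and all had a higher mean in dopamine libraries. Their median log2 fold change (dopamine minus serotonin, on log2(normalized count + 1)) was 0.99, a 1.99-fold difference, and the members ran from 1.27-fold for vha-15 to 2.53-fold for vha-13. Under pan-neuronal scaling the median was 0.17, and vha-9 (-0.13) and vha-15 (-0.48) changed sign. For 7 of the 8 genes the lowest dopamine library exceeded the highest serotonin library, a pattern found in 12.3% of all tested genes, and vha-15 was the exception. Since vha genes were chosen for running high in these columns, nothing is read from that count. Of the 24 differences between libraries of the same replicate number, 24 were above 0. For the 7 genes without overlap this had to be so, and for vha-15 the log2 differences were 0.17, 0.05 and 0.82. Nothing is read from this count either. The median over all tested genes was -0.07.

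**Figure D1:**
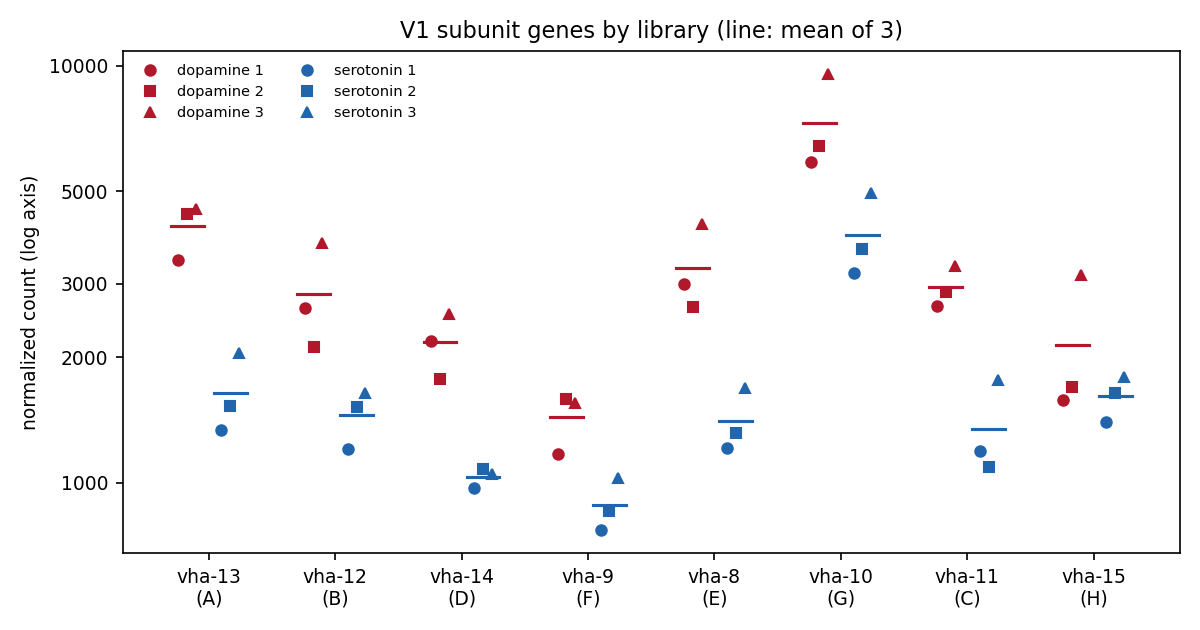
Normalized count (log axis) of each V1 gene in each library, with the subunit letter in brackets, points for the 3 dopamine (red, left) and 3 serotonin (blue, right) libraries and lines for group means. The colours are separate for 7 genes and overlap for vha-15, where dopamine 3 alone stands above all serotonin libraries.

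In the head, vha-13 encodes the A subunit, which binds and splits ATP. It had 3421, 4409 and 4529.9 normalized counts in dopamine libraries 1 to 3, against 1341, 1529.8 and 2054 in serotonin libraries 1 to 3. The lowest dopamine library lay well above the highest serotonin library, and the fold of 2.53 was the largest of the 8 (log2 fold change 1.34, SE 0.25). The B subunit, the non-catalytic partner of A in the head, is encoded by vha-12, which had 2626, 2115 and 3752 in dopamine libraries and 1204.5, 1523 and 1645 in serotonin libraries. These groups did not overlap either, but the gap was smaller, dopamine 2 lay lowest of its group, and the fold was 1.9 (log2 fold change 0.93, SE 0.28). Per length, A over B came to 1.0, 1.6 and 0.927 in dopamine libraries and 0.855, 0.771 and 0.959 in serotonin libraries. Dopamine 2 set the higher dopamine mean of that ratio, and the groups overlapped.

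The rotor genes stood at different folds. The D subunit gene vha-14 had 2191, 1779.95 and 2547 normalized counts in dopamine libraries, against 973, 1078 and 1049.6 in serotonin libraries. Its serotonin libraries were the tightest of any V1 gene (CV 5.25%), every dopamine library was above them, and the fold was 2.08 (log2 fold change 1.06, SE 0.25). The F subunit gene vha-9, whose product sits with D in the central stalk, had 1176, 1586 and 1554 in dopamine libraries and 770.1, 859 and 1028 in serotonin libraries. Here the lowest dopamine library, dopamine 1, came close to the highest serotonin library, serotonin 3, and the fold was 1.62 (log2 fold change 0.70, SE 0.26).

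Both peripheral stalk genes were higher in dopamine libraries. The E subunit gene vha-8 had 2994, 2642 and 4167 normalized counts in dopamine libraries and 1214, 1316 and 1692 in serotonin libraries, 2.3-fold apart (log2 fold change 1.20, SE 0.26). The G subunit gene vha-10, the partner of E in each stalk, had 5889, 6439 and 9578 in dopamine libraries, against 3184, 3632 and 4959.7 in serotonin libraries. It was the most abundant V1 transcript in all 6 libraries and 1.85-fold higher in dopamine neurons (log2 fold change 0.89, SE 0.27). Because E differed more than G, the ratio of G over E per length was lower in dopamine libraries, at 3.32, 4.12 and 3.88, than in serotonin libraries, at 4.43, 4.66 and 4.95, without overlap.

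The C subunit, which links a stalk to V0 and leaves when the pump comes apart, is encoded by vha-11. It had 2662, 2874 and 3309 normalized counts in dopamine libraries and 1194, 1090.4 and 1767 in serotonin libraries, 2.22-fold apart with no overlap (log2 fold change 1.15, SE 0.26). The H subunit, which keeps V1 from splitting ATP when it is free of V0, is encoded by vha-15, and this gene did not follow the others. It had 1579.9, 1703 and 3158 in dopamine libraries, against 1400.3, 1641 and 1795 in serotonin libraries. Dopamine 1 and 2 lay among the serotonin libraries and only dopamine 3 stood above them, so the 1.27-fold difference was little larger than its standard error (log2 fold change 0.35, SE 0.30). Without dopamine 3 the vha-15 log2 fold change was 0.03, and without dopamine 1 it was 0.53.

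Within a group the V1 genes mostly shared their high and low libraries. Dopamine 3 was the highest dopamine library for 7 of the 8 genes, with vha-9 the exception, and dopamine 1 was the lowest for 5. Serotonin 3 was the highest serotonin library for 7 genes, and serotonin 1 the lowest for 7. The mean log2 levels of the pan-neuronal and the mitochondrial ATP synthase genes were also highest in dopamine 3 and serotonin 3. That of the ribosomal protein genes was highest in dopamine 2 and serotonin 2. The CV within a group ran from 11.2% (vha-11) to 40.9% (vha-15) in dopamine libraries and from 5.25% (vha-14) to 27% (vha-11) in serotonin libraries. Each V1 gene had at least 837 recovered reads in every library, for which counting error alone is at most 3.46%. Dopamine 1 and serotonin 3 are the 2 libraries rich in ribosomal RNA. Without that pair the V1 median was 1.13, and all 8 genes were without overlap. With 2 libraries left per group a lack of overlap is easier to reach, so nothing is read from that count.

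A pair of paralogs lies outside the vha-8 to vha-15 run. The gene vha-18 encodes a second H subunit and had 749, 445 and 716 normalized counts in dopamine libraries, against 898, 422 and 605 in serotonin libraries. The groups overlapped fully (log2 fold change 0.02, SE 0.34), so neither H subunit gene separated the cell types. Per length, vha-15 and vha-18 together came to 62.7, 56.6 and 101.7 FPKM (fragments scaled by gene length and, between libraries, as the normalized counts are) in dopamine libraries and 62.7, 54.3 and 63.8 FPKM in serotonin libraries. This H pool overlapped between the groups, and vha-18 supplied 27.2% ± 7.98 of it in dopamine and 31.9% ± 10.3 in serotonin libraries (SD, n = 3 each). The gene spe-5 encodes a B subunit known from sperm and was low, at 65.7, 167 and 74.2 normalized counts in dopamine libraries, against 51.5, 35 and 47.9 in serotonin libraries. Its groups did not overlap (log2 fold change 1.06, SE 0.54), and dopamine 2 was far above the rest. It made 4.55% ± 3.45 of the B pool per length in dopamine and 3.58% ± 1.11 in serotonin libraries.

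Levels of different subunits can be compared only per length, and the FPKM values give that scale. The gene lengths they imply lay between 0.997 and 1.09 times the annotated exonic length for the 8 genes. In dopamine libraries vha-10 came first at 483.6 ± 131.8 FPKM, followed by vha-8 (128 ± 31.3), vha-9 (114 ± 18.1), vha-14 (82.6 ± 14.6), vha-11 (81.4 ± 9.11), vha-13 (74.6 ± 11), vha-12 (66.8 ± 19.7) and vha-15 (54.3 ± 22.2). In serotonin libraries the order was vha-10 (259.9 ± 61.1), vha-9 (70.3 ± 10.4), vha-8 (55.2 ± 9.86), vha-15 (40.8 ± 5.04), vha-14 (39.3 ± 2.06), vha-11 (37.3 ± 10.1), vha-12 (34.4 ± 5.37) and vha-13 (29.7 ± 6.69). Only the step from vha-10 to the next gene, 3.76-fold in dopamine and 3.66-fold in serotonin libraries, and that from vha-8 to vha-15 in serotonin libraries were free of overlap between neighbours. The ranges of all other neighbours overlapped, although within each library vha-9 exceeded vha-14 and vha-12 exceeded vha-15 in all 3 dopamine libraries, and vha-9 exceeded vha-8 and vha-12 exceeded vha-13 in all 3 serotonin libraries. Among 13156 tested protein-coding genes vha-10 stood at percentile 99.5 by mean FPKM in dopamine and 98.9 in serotonin libraries. The other 7 lay between percentiles 91.5 (vha-15) and 97 (vha-8) in dopamine libraries and between 85 (vha-13) and 94.1 (vha-9) in serotonin libraries.

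**Figure D2:**
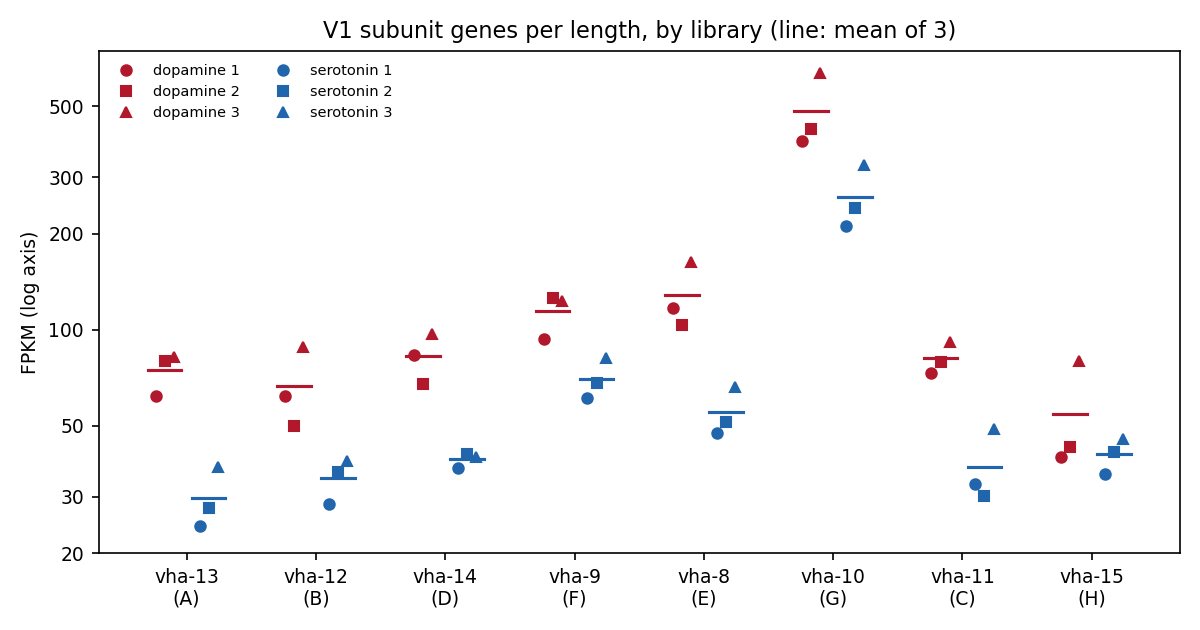
FPKM (log axis) of the V1 genes by library, with dopamine in red on the left, serotonin in blue on the right and lines for means. The G subunit gene vha-10 stands above every other gene in both cell types, while the A subunit gene vha-13 is the lowest gene in serotonin and the H subunit gene vha-15 the lowest in dopamine libraries.

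In the make-up of the V1 transcripts, the shares of vha-8, vha-13 and vha-15 did not overlap between the groups. The shares of a library add up to a fixed total, so they depend on each other. No such share exists for all tested genes, so nothing is read from how many separated. As a share of the summed V1 FPKM, vha-13 took 6.98% ± 1.1 in dopamine and 5.22% ± 0.175 in serotonin libraries, and vha-8 took 11.8% ± 1.08 in dopamine and 9.75% ± 0.191 in serotonin libraries (SD, n = 3 each). The vha-15 share was smaller in dopamine libraries, at 4.34%, 4.42% and 5.88%, than in serotonin libraries, at 7.42%, 7.74% and 6.62%. Dopamine 3 held the largest vha-15 share of its group and still lay below every serotonin library. For the catalytic subunit against the inhibitory one, H over A per length was 0.645, 0.54 and 0.974 in dopamine libraries and 1.46, 1.5 and 1.22 in serotonin libraries. With vha-18 counted in, it was 1.01, 0.709 and 1.24 in dopamine libraries, against 2.58, 1.96 and 1.72 in serotonin libraries. The A gene vha-13 and the H gene vha-15 had the largest and smallest folds of the V1 genes. A difference in their ratio follows from those folds, so nothing is read from it. The shares of vha-9, vha-10, vha-11, vha-12 and vha-14 overlapped, and vha-10 alone took 44.2% ± 2.21 in dopamine and 45.6% ± 1.97 in serotonin libraries. A ratio within a library does not depend on how libraries are scaled, and these ratios come from the contrast used to choose the genes, so no test was made.

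Of the 12 genes of the membrane sector V0, 9 had a higher mean log2 level in dopamine libraries, and the list median was 0.80. For 7 of the 12 every dopamine library exceeded every serotonin library, where 12.3% of all tested genes did, and for vha-5 every dopamine library was lower. Nothing is read from these counts either, since vha genes were chosen on this contrast. The 3 genes below 0 were the a subunit genes vha-5, vha-6 and vha-7, and the 9 others had log2 fold changes of 0.71 to 1.22 (median 0.84). The proteolipid gene vha-2 was at 8510.2, 8044 and 10688 normalized counts in dopamine libraries, against 3904, 3925 and 3789.7 in serotonin libraries. The other proteolipid genes vha-1, vha-3 and vha-4 had log2 fold changes of 1.02, 0.99 and 0.79, and the accessory genes vha-19 and vha-20 of 0.84 and 0.98. The d subunit gene vha-16 (0.75) and the e subunit gene vha-17 (0.81) were the pair whose libraries overlapped. The FPKM values of vha-3 and vha-1 rest on lengths 2.83 and 1.6 times those of their annotated exons. Their levels per length, and the summed V0 FPKM below, are therefore uncertain. Part of the vha-2 exonic sequence, 22.7%, is shared with the gene R10E11.6 on the same strand, so the vha-2 count is uncertain. Under pan-neuronal scaling the median of the 9 was 0.01, and 4 of them lay below 0. The summed V1 FPKM came to 921, 976 and 1359.6 in dopamine libraries and 478, 537 and 686 in serotonin libraries. Divided by the summed V0 FPKM this gave 0.83, 0.925 and 0.977 in dopamine libraries and 0.819, 0.868 and 1.14 in serotonin libraries, and these ratios overlapped.

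The a subunit of V0 is encoded by 4 genes. The form that unc-32 encodes is known from neurons, and unc-32 had 6129, 5175 and 7832 normalized counts in dopamine libraries, against 3677, 4583 and 3378 in serotonin libraries (log2 fold change 0.71, SE 0.24). The gene vha-6, known from the intestine, was at 33.4, 2.72 and 0.6 in dopamine libraries and at 19.3, 17 and 4.91 in serotonin libraries, where the value in dopamine 3 is 1 read. The gene vha-5, known from the excretory canal and the epidermis, stood lower in dopamine libraries, at 131, 75.2 and 88.1, than in serotonin libraries, at 182, 325 and 180.5 (log2 fold change -1.20, SE 0.42). The gene vha-7 had 34.4, 9.81 and 13.3 in dopamine and 53.9, 77.5 and 30.7 in serotonin libraries. Per length unc-32 made 97.6% ± 1.17 of the a subunit transcripts in dopamine and 91.9% ± 1.43 in serotonin libraries.

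Markers of other tissues that use the pump heavily had lower summed counts than the V1 genes, without correction for length. The 4 excretory canal markers summed to between 293 and 437 normalized counts in dopamine libraries and to between 625 and 1131 in serotonin libraries, and the canal aquaporin gene aqp-8 was at 0 in dopamine 2 and 3. Most of that sum was exc-5, at 198, 414 and 227 in dopamine libraries, against 598, 1036 and 565 in serotonin libraries, which was lower in dopamine neurons (log2 fold change -1.41, SE 0.37, limma adjusted p = 0.0333, with 0.0013 to 0.151 in the alternatives). The part of these markers in the V1 values was not tested. The 11 intestine markers summed to between 489 and 673 in dopamine and to between 441 and 894 in serotonin libraries, and the 9 hypodermis markers to between 369 and 839 in dopamine and to between 460.4 and 799 in serotonin libraries. The metallothionein gene mtl-2 was at 0 in all serotonin libraries and the collagen gene col-12 in all dopamine libraries. For comparison the V1 genes summed to between 22539 and 32594 normalized counts in dopamine libraries and to between 11282 and 15989 in serotonin libraries. The V1 gene with the lowest mean count, vha-9, had 1176, 1586 and 1554 in dopamine and 770, 859 and 1028 in serotonin libraries.

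The 16 genes that all neurons use had a median log2 fold change of 0.92, beside 0.99 for V1, and 15 of them were above 0. Of the 16, 9 were called higher in dopamine neurons by limma and 0 lower, where 3.16% and 6.36% of all tested genes were. Every dopamine library exceeded every serotonin library for 12 of them, beside 12.3% of all tested genes. In unc-119 every dopamine library was below every serotonin library (log2 fold change -0.61, limma adjusted p = 0.209, with 0.00419 to 0.52 in the alternatives), and unc-33 stood at 0.28 with overlap. Taken within each library, the mean log2 level of the V1 genes minus that of the pan-neuronal genes was -1.02 ± 0.15 in dopamine and -1.11 ± 0.14 in serotonin libraries (SD, n = 3 each), and the groups overlapped. The V1 mean minus that of the cytosolic ribosomal protein genes was 0.24 ± 0.25 in dopamine libraries and -0.57 ± 0.39 in serotonin libraries, without overlap. Pan-neuronal scaling changed the median of all tested genes by -0.83. It shifts every gene of a library alike, so the V1 median relative to that median, 1.06, could not change, and nothing is read from it.

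**Figure D3:**
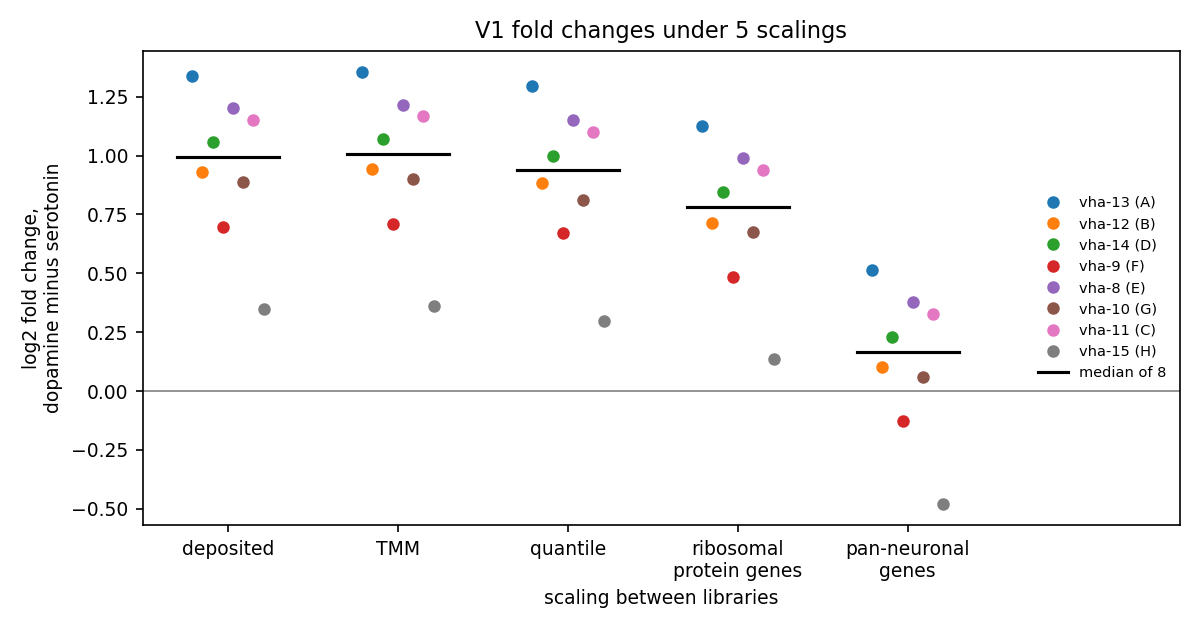
Log2 fold change (dopamine minus serotonin) of the 8 V1 genes under 5 scalings between libraries, with a black line for their median. All 8 lie above 0 under the first 4 scalings, and with pan-neuronal scaling the median is 0.17 and vha-9 and vha-15 lie below 0.

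The mitochondrial ATP synthase, a rotary enzyme related to the V-ATPase that makes ATP, gave lower values. Its 10 tested genes had a median log2 fold change of 0.11, from -0.17 to 0.51, and 0 passed by limma, by edgeR and by DESeq2, with 0 at an unadjusted p under 0.05 in each, while limma called 3.16% of all tested genes higher and 6.36% lower. Of the head genes, atp-1 (alpha) stood at 5971 ± 1219 normalized counts in dopamine and 5027 ± 2219 in serotonin libraries (limma adjusted p = 0.59, with 0.149 to 0.922 in the alternatives), and atp-2 (beta) at 5072 ± 1332 and 4377 ± 495.3 (adjusted p = 0.718, range 0.109 to 0.991). The lowest p of each came from pan-neuronal scaling, where atp-1 and atp-2 had the opposite sign (log2 fold changes of -0.51 and -0.64). In log2 units within a library, the V1 mean lay above the mean of these 10 genes by 2.03, 1.79 and 2.04 in dopamine libraries and by 0.95, 1.22 and 1.33 in serotonin libraries, with no overlap. This difference too rests on the V1 values used to choose the genes.

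Of the transporters that run on the vesicle proton gradient, 1 of 6 tested genes was called higher in dopamine neurons and 0 lower, where 3.16% and 6.36% of all tested genes were. The monoamine transporter gene cat-1 had 6122, 3986 and 8719 normalized counts in dopamine libraries, against 2061, 1708 and 3285 in serotonin libraries, and was 2.64-fold higher in dopamine neurons (log2 fold change 1.40, SE 0.33, limma adjusted p = 0.0199, with 4.13e-05 to 0.126 in the alternatives). Leaving out dopamine 1, dopamine 3 or serotonin 2 ended the cat-1 call (limma adjusted p of 0.0559, 0.102 and 0.0749), with log2 fold changes of 1.38, 1.13 and 1.20. So did leaving out both libraries rich in ribosomal RNA (adjusted p = 0.0512, log2 fold change 1.65), ribosomal protein scaling (0.0817, 1.19) and pan-neuronal scaling (0.126, 0.57). The list median was 0.23.

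Lysosomal genes went both ways. Of 19 tested genes for lysosome membrane proteins and hydrolases, 1 rose and 1 fell in dopamine neurons, where 3.16% and 6.36% of all genes did, and the list median was -0.16. The membrane protein gene lmp-2 had 245, 419 and 532 normalized counts in dopamine libraries, against 24.8, 36 and 81 in serotonin libraries, 8.89-fold apart (log2 fold change 3.15, SE 0.51, limma adjusted p = 0.00221, with 8.06e-08 to 0.0188 in the alternatives). The cathepsin L gene cpl-1 fell to 190.5 ± 158 in dopamine neurons, against 605.1 ± 17.3 in serotonin neurons (SD, n = 3 each, log2 fold change -2.11, SE 0.59, limma adjusted p = 0.045, range 0.00521 to 0.147). Leaving out dopamine 1, dopamine 3 or any serotonin library ended this call (limma adjusted p of 0.0695, 0.0852, 0.115, 0.116 and 0.12), with log2 fold changes of -2.25, -1.29, -2.10, -2.13 and -2.10. So did leaving out both libraries rich in ribosomal RNA (adjusted p = 0.147, log2 fold change -2.24) and the use of edgeR (0.146, -1.65). With the replicate block ncr-2, a homolog of the Niemann-Pick cholesterol transporter, also fell (limma adjusted p = 0.0301, with 0.0215 to 0.703 in the alternatives), against 0.251 without the block, and edgeR with the block did not call it.

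**Figure D4:**
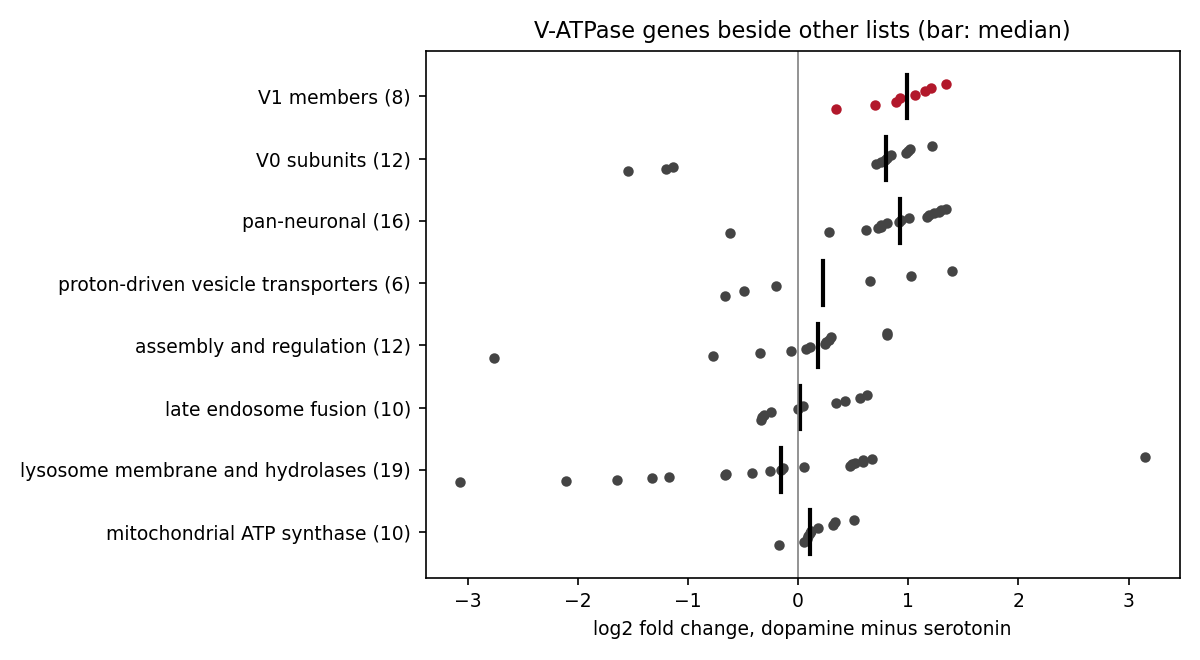
Log2 fold change (dopamine minus serotonin, deposited scaling) of each tested gene in 8 lists, with bars for list medians and the number of genes in brackets. The medians of the V1, V0 and pan-neuronal genes are 0.99, 0.80 and 0.92, and the other lists centre between -0.16 and 0.23. Apart from their lists lie vha-15 at 0.35, unc-119 at -0.61 and the V0 genes vha-5, vha-6 and vha-7 at -1.20, -1.13 and -1.55. Pan-neuronal scaling shifts the median of all tested genes by -0.83 and puts vha-9, vha-15 and 4 more V0 genes below 0.

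Among 12 genes for assembly and regulation of the pump, 0 passed by limma and by edgeR, and 1 (rbc-2) by DESeq2, with 2 higher and 1 lower in dopamine neurons at an unadjusted p under 0.05 by limma. The list includes the rabconnectin genes rbc-1 and rbc-2, whose products help V1 to join V0, the TFEB-like regulator gene hlh-30, and genes of the lysosomal nutrient sensor. The list median was 0.18. The rbc-1 gene stood at 17361 ± 2534.5 normalized counts in dopamine and 14416 ± 2858 in serotonin libraries (limma adjusted p = 0.524, with 0.076 to 0.94 in the alternatives), and the folliculin gene flcn-1 at 7201 ± 1368 and 5888 ± 1315.5 (adjusted p = 0.525, range 0.161 to 0.927). Their lowest p came from pan-neuronal scaling, where rbc-1 and flcn-1 had the opposite sign (log2 fold changes of -0.55 and -0.53). With the replicate block, 2 rose, rbc-2 (log2 fold change 0.81, limma adjusted p = 0.00701, range 0.00701 to 0.961) and nhr-31, a nuclear receptor gene known to act on vha genes in the excretory cell (0.81, adjusted p = 0.0368, range 0.0368 to 0.97), and mxl-3, whose product opposes that of hlh-30, fell (-2.76, adjusted p = 0.0405, range 0.0193 to 0.226). Without the block these were at 0.0663, 0.138 and 0.0824, and of the 3 edgeR with the block called rbc-2 and neither nhr-31 nor mxl-3. The genes rbc-2, nhr-31, mxl-3 and ncr-2, the single marker genes given above, and the neighbours named below were picked outside the rule for named genes, all but the neighbours with their values in view. Of 10 genes for late endosome fusion, 0 passed by limma, edgeR and DESeq2, and 0 did at an unadjusted p under 0.05 (median 0.02). The 2 most abundant of them were rab-7, at 1112 ± 233.9 against 866 ± 81.5 (limma adjusted p = 0.501, with 0.221 to 0.865 in the alternatives), and vps-11, at 638 ± 115 against 746 ± 24.2 normalized counts (adjusted p = 0.642, range 0.0217 to 0.905). For both the lowest p came from pan-neuronal scaling, with log2 fold changes of -0.48 (rab-7, opposite in sign) and -1.07 (vps-11).

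The 8 V1 genes are spread over 6 chromosomes of the WBcel235 assembly. By Ensembl release 115, vha-8 (WBGene00006917) lies on chromosome IV at 6791074 to 6792455, vha-9 (WBGene00006918) on II at 10303050 to 10303713, vha-10 (WBGene00006919) on I at 5609341 to 5610270 and vha-11 (WBGene00006920) on IV at 2307815 to 2314567. The gene vha-12 (WBGene00006921) lies on X at 4191094 to 4193144, vha-13 (WBGene00013025) on V at 14351709 to 14354422, vha-14 (WBGene00010130) on III at 9508100 to 9509757 and vha-15 (WBGene00020507) on X at 2237911 to 2240255. Exonic lengths run from 518 bases for vha-9 to 2333 for vha-13. Exons of vha-13 share 13 bases, 0.557% of its exonic length, with Y49A3A.3 on the same strand, and exons of the other 7 share no base with another annotated gene.

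Each V1 gene has another nearest non-overlapping protein-coding gene upstream on its strand, given here with the distance. For vha-11 it is the V0 proteolipid gene vha-3, 892 bases away, which had a log2 fold change of 0.99 without overlap beside 1.15 for vha-11 itself. For vha-10 it is trpp-8, 103 bases away, which stood at 3312 normalized counts in dopamine and 3263 in serotonin libraries on average (log2 fold change 0.01), beside 0.89 for vha-10. For vha-13 it is cept-2, 226 bases away, at 583 and 394 (0.49, with overlap), beside 1.34 for vha-13. For vha-9 it is gcy-4, 425 bases away, at means of 4.52 in dopamine and 6.09 in serotonin libraries, which was too low to be tested. Upstream of vha-15, T14F9.2 at 1204 bases had a log2 fold change of 0.95 without overlap, beside 0.35 for vha-15. The neighbours of vha-8, vha-12 and vha-14 lie farther away, anat-1 at 11053, ZK470.14 at 21286 and ctr-9 at 11041 bases, and had log2 fold changes of 0.15, 0.41 and 0.24 with overlap.

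Over the 6 libraries, 7 of the V1 genes followed the mean of the other V1 genes closely, with a Pearson correlation of log2 values of 0.93 (vha-9) to 0.99 (vha-8), and vha-15 less closely at 0.71. For vha-18 the correlation with the V1 mean was 0.02, and for vha-5 it was -0.83. Of 7599 other protein-coding genes with a mean of at least 100 normalized counts, 659 had a correlation above 0.9 with the V1 mean, so a high value is common with 2 groups of 3 libraries. The 10 highest, from 0.989 to 0.997, were the bZIP factor gene atf-7, Y37A1A.3, the stomatin-like gene sto-4, the seryl-tRNA synthetase gene sars-2, tag-68, F32B4.5, R10E12.2, the clathrin adaptor gene unc-11, mct-4 and the carbonic anhydrase gene cah-6. In atf-7 the means were 11134 normalized counts in dopamine and 5221 in serotonin libraries. These values describe shared libraries and carry no test.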

How the data were processed

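RNA-seq of 3 dopamine and 3 serotonin libraries was used. Per the labels, polyA RNA from a PicoPure extraction was made into libraries from nanogram amounts. STAR, HTSeq and DESeq2 appear, without roles, in the submitters' processing notes. For aligner settings, build and strandedness nothing is stated. Deposited by the authors were FPKM values and a signal of normalized counts, which is reads divided by a size factor per library. At least 99.9955% of values above 0 in each column were whole multiples of 1 step within 0.02, and division by it gave reads. Sequences were not used here. Genes were matched by identifier to Ensembl 115, 46407 of 47063.

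Members and lists were chosen with earlier results of these data known. Genes with at least 10 normalized counts in at least 3 libraries were fitted by limma 3.58.1 (trend, robust) on log2(value + 1) in R 4.3.3, with Benjamini-Hochberg adjusted p under 0.05. V-ATPase genes were described only. No set test was made. Named genes were all V-ATPase genes, in each other list the 3 with the largest change among passing genes or the 2 most abundant where none passed, and the 10 most correlated with the V1 mean. Deviations from group means correlated at 0.433, 0.173 and 0.28 between libraries of the same number and at most 0.0134 between others. Within a group the deviations of a gene cancel out, so high values for the same number push the others down. The contrast is thus partly built in. The numbers were taken to pair libraries in the replicate block. The main fit, with its calls and p-values, did not use this pairing. Alternatives were other pseudocounts, filters and scalings, FPKM values, recovered reads tested by DESeq2 1.42.0 or edgeR 4.0.16, the replicate block and leaving out libraries. For the V1 genes normalized count over FPKM was the same in every library, so FPKM brought no other scaling between libraries. The fits were tested on simulated data.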

Additional observations from a re-analysis of the deposited data

How the results depend on the processing

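The V1 median log2 fold change kept its direction under every alternative run. It was 0.82 to 1.14 when 1 library was left out, and 0.17 when scaled to pan-neuronal genes, where vha-9 was at -0.13 and vha-15 at -0.48. The replicate block left the V1 median at 0.99, as it must where each number holds 1 library of each group. The count of V1 genes without overlap was 7 or 8, except 2 when scaled to pan-neuronal and 4 when scaled to ribosomal protein genes. Leaving out libraries makes a lack of overlap easier to reach. Genes called higher and lower in dopamine neurons numbered 184 and 2796 when scaled to pan-neuronal genes and 1068 and 1842 with the replicate block. The higher count was 281 when scaled to ribosomal protein genes, 781 by edgeR with the replicate block (chosen after seeing the data) and 294 without dopamine 1 and serotonin 3. With 1 library left out the counts ran from 224 to 455 and from 581 to 1289.

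Over the 5 pathway lists 2 genes were called higher and 1 lower. These became 1 and 10 when scaled to pan-neuronal genes, and 4 and 3 with the replicate block, and the higher count was 1 when scaled to ribosomal protein genes or without dopamine 1 and serotonin 3. The lower count was 2 with a pseudocount of 8 and 0 by edgeR. With 1 library left out they ran from 1 to 2 and from 0 to 2. The rank by mean FPKM was kept by 6 of 8 V1 genes without any 1 dopamine library, and by 4 to 8 without 1 serotonin library. The cause of these changes was not tested. Overlap has no value for edgeR, DESeq2 or the block.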
